A study of Mus musculus with 2 samples.

Results

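The mouse transcripts described here are protein-coding and carry an annotated 5' untranslated region (5'UTR, or leader) of at least 800 nucleotides. They were chosen from the annotated lengths alone: biotype protein coding, a coding sequence from 300 to under 6000 nucleotides and a 3' untranslated region longer than 0. The rule selected 805 transcripts of 652 genes, out of 109463 transcripts of 45578 genes in all. They made up 2.29% of the 35215 coding transcripts in this coding length range. The comparison class held the 11121 transcripts of 8399 genes in the same coding range with a 5'UTR of 50 to 150 nucleotides.

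The measurement was ribosome profiling, in which nuclease digestion leaves short stretches of mRNA covered by ribosomes, called footprints, that are then sequenced. Both samples were brains of control mice of the Taiwanese line at postnatal day 5, genotype Smn+/-; SMN2tg/0 on the FVB background, and served as biological replicates 1 and 2 of 1 group (n = 2). Both animals therefore lacked 1 working copy of mouse Smn and carried a human SMN2 transgene, so they were not wild type. Footprints came from polysome fractions, so mRNAs outside them were not sampled. With 1 group there is no contrast between conditions, and whole brains do not show which cells a footprint came from.

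The small ribosomal subunit is loaded near the cap of an mRNA and scans along the leader until it meets a start codon. A long leader offers more room for structure, for binding sites and for upstream open reading frames, short reading frames that ribosomes can translate before they reach the main one. Long leaders are a known feature of many genes of growth control, transcription and neuronal development, while mRNAs for ribosomal proteins have short ones. The counts here belong to whole transcripts, so footprints in a leader were not separated from those in the coding sequence.

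The leaders begin at a transcription start, and the bases just before it are shown for 4 of the 8 long-leader transcripts with the highest level, those with a single start listed in a RefSeq promoter table. Each line gives the last 30 bases before the start of the gene in RefSeq, 5' to 3' on the gene's strand, with CpG dinucleotides in capitals, on build GRCm38.p6. They lie at chr16:38088971-38089000 (plus strand) for Gsk3b, chr12:3365102-3365131 (plus) for Kif3c, chr12:86884815-86884844 (minus) for Irf2bpl and chr14:84443533-84443562 (plus) for Pcdh17.
Gsk3b: cccttcccttcaccaatcacCGagaaaggt
Kif3c: ccagcatgctCGggttCGgtggggtgaCGg
Irf2bpl: tgaCGtcagCGctcCGccCGggCGgcatcc
Pcdh17: tttaagCGgCGgCGtgaggtgaatagagtc
Gsk3b had 1 CpG in its stretch, Kif3c 3, Irf2bpl 5 and Pcdh17 3. Of all 32851 starts in the table, 57.1% held at least 1 CpG in the same window. A start in RefSeq need not be the start of the transcript counted here. Of the 652 genes, 491 (75.3%) matched the promoter table, under the 80% needed for a comparison of promoters, so none was made. Leader sequences were not used here.

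Replicate 1 held 1866831 footprints and replicate 2 held 5261878, a ratio of 2.82. Footprints of neurons, astrocytes and radial glia, the oligodendrocyte lineage, microglia and endothelium were found for every marker gene listed for them. Red cell genes took 2484 CPM (counts scaled to a common library total) in replicate 1 and 1702 CPM in replicate 2. Neuronal markers took 4554 and 3144 CPM, and choroid plexus genes 629 and 331 CPM. Astrocytes and radial glia took 2284 and 2115 CPM, the oligodendrocyte lineage 996 and 1198, microglia 233 and 238 and endothelium 281 and 248. Single genes weighed on these sums, as Ttr had 1087 and 1456 of the 1175 and 1743 choroid plexus footprints. Folr1, of the same list, had 45 and 183. The liver genes Alb and Ahsg had 0 footprints in both samples, and the 4 liver genes together had 1 and 8. Skeletal muscle genes had 149 and 288 footprints, of which Acta1 had 140 and 264. None of these marker genes had a long-leader transcript, and the part of any cell type in the values below was not tested. In whole tissue, fewer cells of a type and less RNA per cell cannot be told apart.

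Long-leader transcripts took 1.70% of all footprints in replicate 1 (1.68% to 1.72%, 95% interval by Clopper and Pearson) and 1.64% in replicate 2 (1.62% to 1.65%), a mean of 1.67% ± 0.0450 (SD, n = 2). They are 0.735% of the transcripts listed, many of which are not protein coding. All coding transcripts of the coding range were 32.2% of the transcripts listed and took a mean of 64.8% of footprints. Long-leader transcripts were 2.29% of the transcripts in that range. Intervals, and the exact binomial p-values below, cover counting error only and leave out variation between animals and library preparations. They treat footprints as independent, which PCR copies are not, so even the counting error may be understated. Their median leader was 1006 nucleotides, against 96 in the short-leader class, and the longest was 8962. Other lengths differed as well. The median coding sequence was 1284 nucleotides in the long-leader and 1170 in the short-leader class, the median 3'UTR 899 and 554, and the median transcript 3614 and 2114.

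The typical long-leader transcript carried more footprints per coding nucleotide than the typical short-leader transcript. In replicate 1 the median was 10.6 footprints per 1000 coding nucleotides for long leaders and 5.26 for short leaders. In replicate 2 these medians were 34.3 and 19.3. The long-leader median was therefore 2.01 times the short-leader median in replicate 1 and 1.78 times in replicate 2, a mean of 1.89 ± 0.158 (SD, n = 2). Transcripts are not replicates, so the classes are described in each sample and no test was made between them. Matched RNA abundance was not used here, so the values are levels of footprints, and translational efficiency was not measured.

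The difference lay in the lower part of the distribution. In replicate 2 the lower quartile was 9.12 footprints per 1000 coding nucleotides for long leaders and 1.36 for short leaders. The upper quartiles were closer, at 90.7 and 78.1. At the 90th percentile the order was turned, with 187.5 for long and 218 for short leaders, and at the 99th percentile the values were 529 and 949. Replicate 1 had the same order at each of these points, with 70.0 for long and 74.0 for short leaders at the 90th percentile. The densest short-leader transcript had 3799 footprints per 1000 coding nucleotides in replicate 2, and the densest long-leader transcript had 1000.

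**Figure D1:**
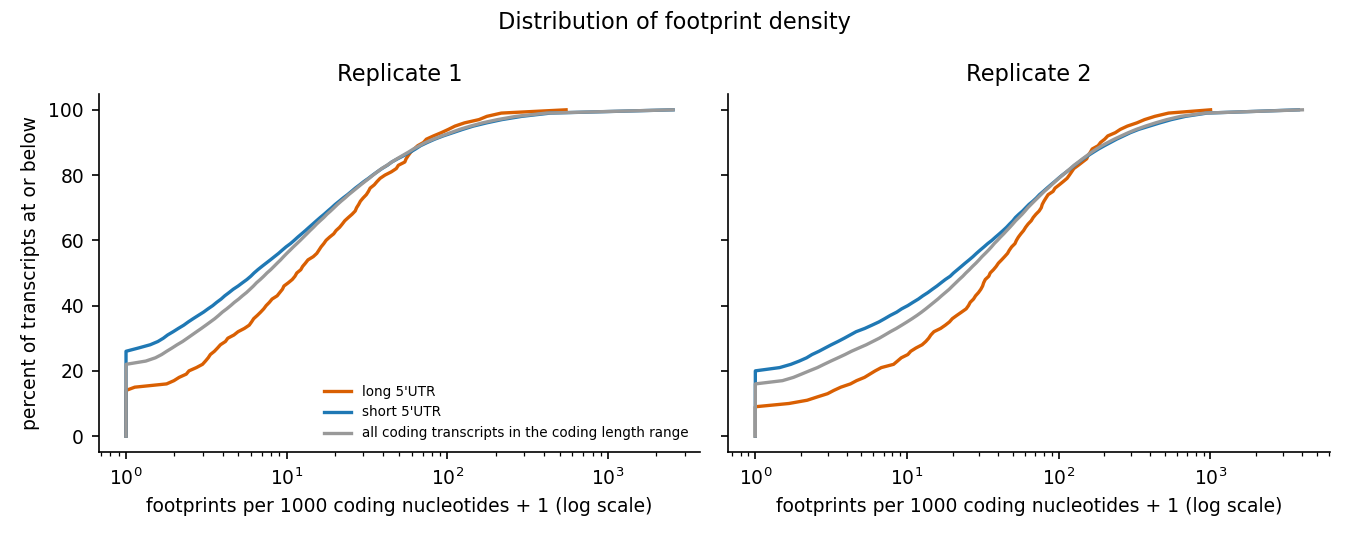
The percent of transcripts at or below each footprint density (per 1000 coding nucleotides plus 1, log axis) is drawn for long leaders, short leaders and all coding transcripts of the coding range, 1 panel per replicate. The long-leader curve lies to the right at the median (34.3 against 19.3 in replicate 2) and to the left at the 90th percentile (187.5 against 218).

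Counts near 0 were fewer among long leaders. No footprint in either sample was found for 68 of 805 long-leader transcripts (8.45%), 2119 short-leader transcripts (19.1%) and 5307 (15.1%) of all coding transcripts of the range. A count of 0 allows up to 3 footprints, which is 1.61 CPM in replicate 1 and 0.570 CPM in replicate 2. A mean count of at least 10 was reached by 586 long-leader transcripts (72.8%) and 6421 short-leader transcripts (57.7%). Among the transcripts that reached it, the ratio of medians was 1.05 in replicate 1 and 0.937 in replicate 2, a mean of 0.992 ± 0.0777 (SD, n = 2). Above this count the medians of the classes thus stood in opposite order in the replicates. With a mean count of 50 or more (333 and 3390 transcripts) the ratio was 0.801 and 0.777, so the long-leader median was the lower in both. These filters act on the counts that also form the density, and they removed a larger share of short-leader transcripts. A shorter transcript also needs a higher density to reach a given count. The filtered ratios therefore compare unlike parts of the 2 classes. The densest 10% of all coding transcripts of the range held 8.70% ± 1.05 of long-leader and 10.3% ± 0.140 of short-leader transcripts (SD, n = 2).

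The ratio also depended on the length used. Per nucleotide of the whole transcript, which includes both untranslated regions, it was 1.32 ± 0.108 (SD, n = 2). Summed footprints over summed coding length gave 25.3 per 1000 nucleotides for long and 23.4 for short leaders in replicate 1, and 68.7 and 62.6 in replicate 2. That ratio was 1.09 ± 0.00962 (SD, n = 2).

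The ratio of medians was larger for longer coding sequences. It was 1.36 ± 0.0792 for those under 1000 nucleotides (283 long-leader transcripts), 1.81 ± 0.208 from 1000 to under 2000 (314) and 2.48 ± 0.126 from 2000 (208; SD, n = 2 in each). It was smaller where more transcripts are annotated for the gene. For genes with a single transcript it was 4.87 ± 0.301, from 138 long-leader and 2384 short-leader transcripts, and for genes with 2 to 5 transcripts it was 3.15 ± 0.208. For genes with more than 5 transcripts it was 1.28 ± 0.102 (SD, n = 2 in each). The ratio for genes with a single transcript rests on a low short-leader median, 1.78 and 5.10 footprints per 1000 coding nucleotides in replicates 1 and 2. The long-leader median there was 9.03 and 23.7. A mean count of 10 was reached by 45.2% of these short-leader and 54.3% of these long-leader transcripts. For genes with more than 5 transcripts the short-leader median was 7.55 and 27.7.

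Chemoreceptor genes (olfactory, vomeronasal, taste and trace amine receptors), which work mainly in sensory cells outside the brain, were part of the low end. The long-leader class held 13 of these transcripts, with 3 and 14 footprints in all, and the short-leader class 140, with 1 and 3 footprints. Without them the ratio was 1.91 ± 0.170, and among genes with a single transcript 3.79 ± 0.221 (SD, n = 2 in each).

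Across bands of leader length, the median density in replicate 1 was higher in each longer band up to 2000 nucleotides. With leaders under 50 nucleotides it was 3.94 footprints per 1000 coding nucleotides in replicate 1 and 15.7 in replicate 2. Above 150 and under 400 nucleotides it was 8.11 and 28.2, and from 400 to under 800 it was 9.10 and 31.5. Within the long leaders, the 390 transcripts under 1000 nucleotides had 10.3 and 34.5, and the 295 from 1000 to under 1500 had 10.9 and 33.0. The 83 transcripts from 1500 to under 2000 nucleotides had the highest medians, 14.5 and 43.2. The 37 transcripts with leaders of 2000 nucleotides or more had 6.08 and 20.7, close to the short-leader class. Their median coding sequence was 855 nucleotides, the shortest of the 8 bands, and 54.1% of them reached a mean count of 10. The quartiles of neighbouring bands overlapped throughout.

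**Figure D2:**
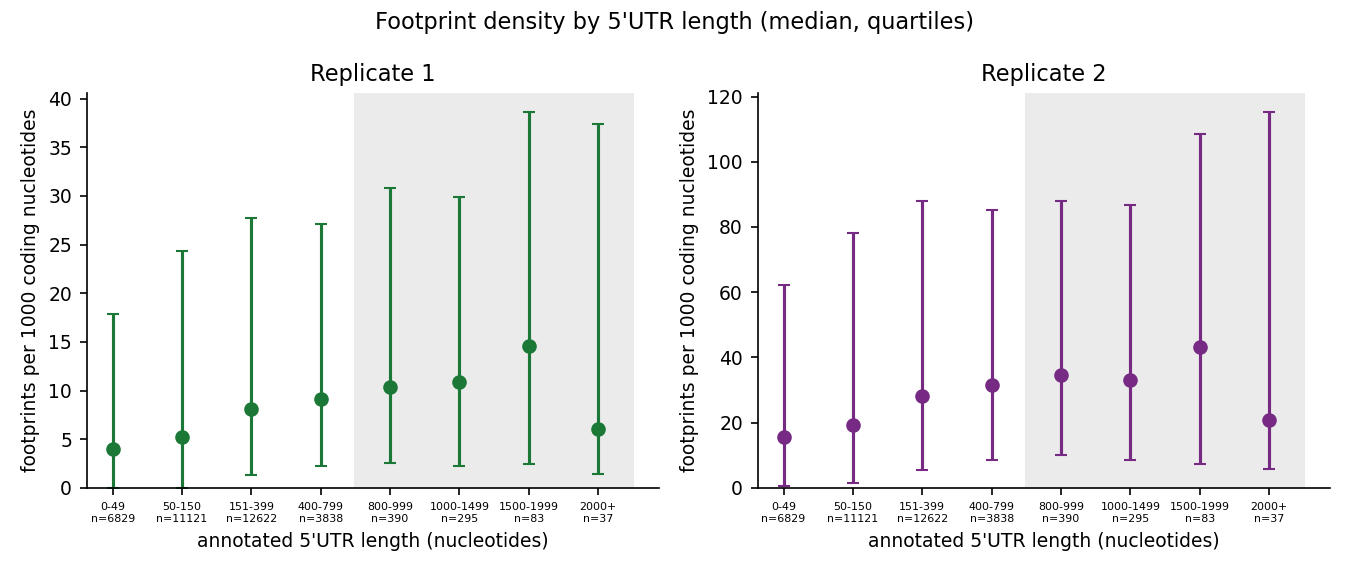
Points give the median footprints per 1000 coding nucleotides for bands of annotated 5'UTR length, with bars from the lower to the upper quartile and the number of transcripts under each band, 1 panel per replicate. The shaded bands hold the long leaders, whose medians run from 10.3 to 14.5 in replicate 1 before dropping to 6.08 at 2000 nucleotides and above.

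At the threshold itself, 30 transcripts had leaders of at least 800 and under 810 nucleotides and a median of 10.6 and 32.2 footprints per 1000 coding nucleotides. Just outside, 15 transcripts with leaders from 790 to under 800 nucleotides had 4.44 and 16.8. The most abundant just inside were Slc17a6-201, with a leader of 805 nucleotides and 377 and 826 footprints in replicates 1 and 2, Prkce-001 (808; 224 and 603) and Trim67-001 (243 and 551). Just outside were Kcnd2-001 (796; 187 and 531), Trim8-201 (796; 150 and 289) and Zfp91-001 (793; 65 and 146).

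The 805 transcripts were spread unevenly over genes. Of the 652 genes, 547 had 1 long-leader transcript, 72 had 2 and 33 had 3 or more. Car10, a carbonic anhydrase-related protein, had the most, 6, with leaders of 892 to 936 nucleotides and 164 and 475 footprints together. Transcripts of 1 gene share sequence, and how a footprint that matches several was assigned is not given in the sources used here. In 376 genes with other coding transcripts and at least 10 footprints on average, long-leader transcripts held a median of 40.3% of the gene's coding footprints while making up a median of 32.3% of its coding transcripts. The share of footprints was the larger in 296 of these genes (78.7%). These shares were not corrected for length. The other coding transcripts could lie outside the coding length range or lack a 3'UTR, which the rule did not allow for long leaders. Long-leader transcripts had a median length of 3614 nucleotides, against 2437 over all coding transcripts of the range. The part of length in these shares was not tested.

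The long-leader transcript with the most footprints was Hnrnpul2-201, of a nuclear RNA-binding protein. Its leader was 881 nucleotides, and it had 588 footprints in replicate 1 and 1185 in replicate 2, or 270.1 ± 63.5 CPM (SD, n = 2). Gnas-002, of the stimulatory G protein alpha subunit that activates adenylyl cyclase, followed with a leader of 2362 nucleotides and 456 and 1093 footprints, or 226 ± 25.8 CPM. Gsk3b-001, of a kinase in Wnt and insulin signalling, had a leader of 1525 nucleotides and 396 and 885 footprints, or 190.2 ± 31.1 CPM. These 3 also stood among the densest per coding nucleotide.

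Next by level were transcripts of neuronal transport, transmission and adhesion. Kif3c-201, of a kinesin motor subunit, had 392 and 834 footprints (184 ± 36.4 CPM). Slc17a6-201, of the vesicular glutamate transporter VGLUT2, had 377 and 826 (179 ± 31.8 CPM). The adhesion transcripts were Pcdh17-201, of a protocadherin, with 387 and 777 footprints (177 ± 42.2 CPM), and Cdh2-001, of N-cadherin, with 312 and 918 (171 ± 5.19 CPM). Irf2bpl-201, of a nuclear regulatory protein, had 427 and 711 footprints (182 ± 66.2 CPM). Of these 8, Cdh2-001 alone was higher in CPM in replicate 2.

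Per coding nucleotide, Fam19a2-201 came first. It encodes a small secreted protein of brain, its coding sequence is 408 nucleotides against a leader of 1667, and it had 223 and 408 footprints, which is 546.6 and 1000 per 1000 coding nucleotides. Gnas-002 had 385 and 922 and Gsk3b-001 314 and 701 on this scale. Igf2-002, of the fetal growth factor Igf2, had 147 and 343 footprints, or 255 and 595 per 1000 coding nucleotides, below a leader of 1099. Where the leader is longer than the coding sequence, as in Fam19a2-201, Gnas-002, Gsk3b-001 and Igf2-002, footprints in the leader would raise this value, and these could not be told apart from coding footprints.

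The other transcripts among the 10 densest were of mixed function. Pafah1b1-002, of the dynein regulator Lis1, had 225 and 718 footprints. Nedd4-002, of a ubiquitin ligase, had 97 and 330 on a coding sequence of 588 nucleotides. Trib2-001, of a pseudokinase, had 213 and 522, Zcchc18-003 had 232 and 625, and Rpl36al-002, of a ribosomal protein, had 56 and 169.

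**Figure D3:**
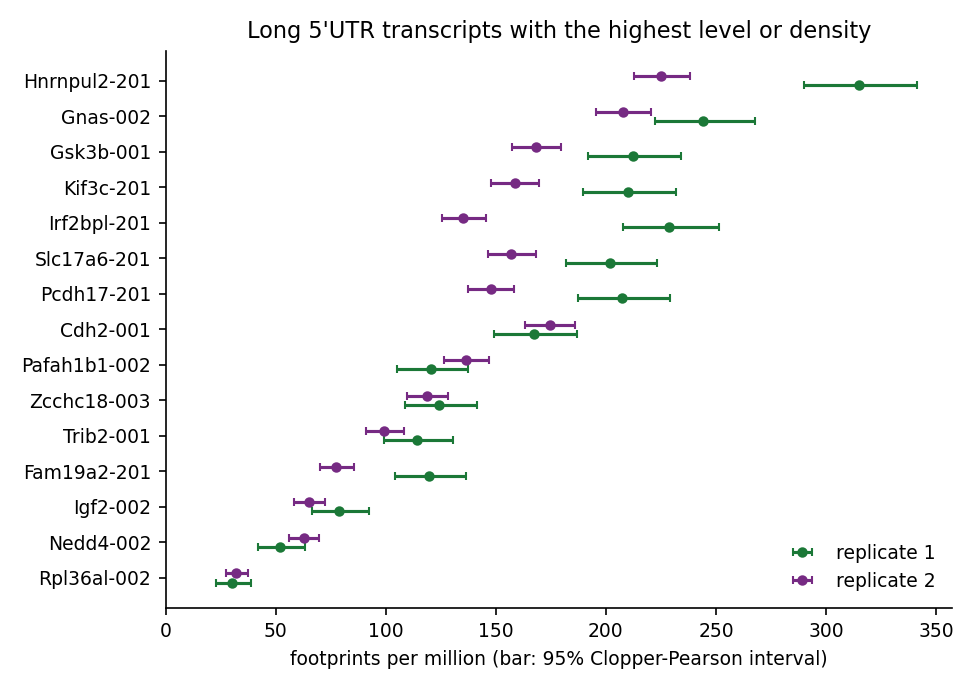
Points give the level, in CPM, of the long-leader transcripts with the highest level or density, in each replicate, with 95% Clopper-Pearson intervals for counting error. Hnrnpul2-201 is highest at 315 and 225 CPM, and replicate 1 lies above replicate 2 in most of the transcripts, with Cdh2-001 (167 and 174 CPM) among the exceptions.

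Levels differed widely among the longest leaders. Tmbim1-002, with the longest leader of those with a mean count of 10 or more (8962 nucleotides), had 6 and 19 footprints. Rsbn1l-001 (4613) had 9 and 44, and Ggnbp1-002 (3687) had 16 and 50. Higher counts were found on Ccrn4l-002, of the circadian protein nocturnin, whose leader of 7607 nucleotides went with 93 and 408 footprints. Hypk-005 (3514), of a chaperone-like protein, had 40 and 112, and Rap2b-001 (3419), of a small GTPase, had 72 and 179.

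By function, the share of genes with a long leader was largest in the list of guidance and adhesion genes. Of all 19013 genes with a transcript in the coding range, 3.43% had a long-leader transcript. Lists of genes were read against this share, with no test. The share of a list is over all its genes, with or without a transcript in the coding range, so the bases differ. A gene with more annotated transcripts has more that could carry a long leader. The 51 guidance and adhesion genes had 202 coding transcripts, the 66 transcription factors 367 and the 70 ribosomal protein genes 159. All 21874 coding genes had 49617. The part of transcript number in these shares was not tested. The growth-control list was made of genes known for long or structured leaders, so its share partly follows from that choice. The share was 31.4% for guidance and adhesion (16 of 51 genes), 25.7% for growth-control genes known for long or structured leaders (9 of 35), 21.2% for transcription factors (14 of 66), 16.1% for genes known for upstream open reading frames (5 of 31) and 11.5% for receptors and channels (6 of 52). For kinases, phosphatases and regulators of small G proteins it was 6.56% (4 of 61), for ubiquitin ligases 5.13% (2 of 39) and for chromatin regulators 4.88% (2 of 41). For initiation factors it was 2.00% (1 of 50), for RNA-binding and splicing proteins 1.92% (1 of 52) and for cytosolic ribosomal proteins 1.43% (1 of 70). The last 3 shares rest on 1 gene each, and Rpl36al, a ribosomal protein paralog with a long-leader transcript, is not on the ribosomal list.

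All 33 long-leader transcripts of guidance and adhesion genes reached a mean count of 10, with a median of 26.1 and 81.6 footprints per 1000 coding nucleotides. Pcdh10, a protocadherin, had 4 transcripts with 728 and 1956 footprints together, each with 160 to 204 in replicate 1 and 447 to 513 in replicate 2. Robo1-001, of a receptor for Slit guidance cues, had 276 and 691 footprints, and its ligand gene Slit2 had 56 and 188 on 4 transcripts. Nlgn2-001, of the neuroligin of inhibitory synapses, had 322 and 602, and Plxna4-001, of a semaphorin receptor, had 307 and 648. Footprints of this list were thus spread over receptors, ligands and synaptic adhesion proteins.

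Transcription factors with long leaders included several of neural development. Pou3f3-001 had 241 and 453 footprints, and Myt1l, a factor of neuronal identity, had 192 and 553 on Myt1l-201 and 204 and 535 on Myt1l-202. The 4 transcripts of Nfib had 140 and 675, and the 4 of Pax6 had 16 and 91. Summed per gene, the long-leader transcripts of this list had from 46 footprints (Emx2) to 1088 (Myt1l) in replicate 2.

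Of the growth-control genes, Igf2 is described above, and Pdgfb-201, of a platelet-derived growth factor chain, had 42 and 138 footprints. The blood and bone factors Runx1 and Runx2 had long-leader transcripts with 2 and 1 and with 3 and 2 footprints. Of the genes known for upstream open reading frames, Tcf4-003 had 31 and 83 footprints, Mkks-001 18 and 68, Smad7-001 22 and 35 and Slc35a4-201 15 and 44, beside medians of 16 and 49 over all long-leader transcripts. The Hoxa9 transcript had 0 in both.

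Among kinases, Prkce-001, of a protein kinase C, had 224 and 603 footprints beside Gsk3b-001. Channel and receptor transcripts had fewer, with 78 and 309 on Cacna1e-201, of a calcium channel, 82 and 203 on Cacng2-001, of the AMPA receptor partner stargazin, and 55 and 189 on Epha5-002, of an ephrin receptor. Of chromatin regulators, Dnmt1-203, of the maintenance DNA methyltransferase, had 92 and 294. The 2 transcripts of the ubiquitin ligase gene Trim67 had 510 and 1131 together. Mbnl1, a splicing regulator, had 9 and 54 on 2 transcripts. The ribosomal protein transcript Rpl18-001, with a leader of 2375 nucleotides, had 81 and 208.

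The factors that carry out scanning were followed through the counts of all transcripts of each gene. The 50 genes took 0.742% of footprints in replicate 1 and 0.792% in replicate 2. Eif4a1, of the helicase that unwinds leaders, had 1392 and 4157 footprints, and its relative Eif4a2 had 894 and 3554. The scaffold Eif4g1 had 561 and 2225, Eif4g2 had 855 and 2466, and Ddx3x, of another helicase of structured leaders, had 555 and 1465. Their one gene with long leaders was Eif4g3, whose 3 transcripts with leaders of 911 to 1040 nucleotides had 129 and 429 of the gene's 351 and 1316 footprints.

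Pairs of transcripts from 1 gene hold the gene fixed, but their ratios depend on how shared footprints were assigned, most of all where the coding sequences are alike. Both a long-leader and a short-leader transcript were annotated in 142 genes, and 115 of these had at least 10 footprints on average in the pair. The median log2 ratio of footprint density, long over short, was 0.37, with quartiles of −0.05 and 0.87, and was 0.40 in replicate 1 and 0.32 in replicate 2. The long-leader side was the denser in 78 genes and the less dense in 37. Both replicates gave the same sign in 87 genes, 67 of them with the long-leader side higher. Per nucleotide of whole transcript the median was −0.21, with the long-leader side higher in 40 of 115, so the direction depended on the length chosen. The ends of the range were Mrpl48, at −4.47 (0 and 1 footprints against 26 and 64), and Ggnbp1, at 3.98 (16 and 50 against 0 and 2).

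Homer1, the gene of a postsynaptic scaffold, had 113 and 272 footprints on 3 long-leader transcripts against 10 and 54 on 2 short-leader ones, a log2 density ratio of 2.43. Osbpl1a, of a lipid transfer protein, had 90 and 296 against 4 and 18, a ratio of 2.75. Nedd4 had 97 and 330 on its long-leader transcript against 127 and 353 on its short-leader one, a ratio of 0.47. Igf2 had 147 and 343 against 239 and 606 on 2 short-leader transcripts, a ratio of 0.13. These ratios compare transcripts that also differ in coding length, and Homer1 and Osbpl1a were picked after their values were seen.

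In 29 genes with at least 10 footprints on average, the long-leader and short-leader transcripts had identical coding length. Here the long-leader transcripts carried a median of 1000.5 additional leader nucleotides. The median log2 ratio was 0.31 (quartiles −0.04 and 0.62), 0.33 in replicate 1 and 0.24 in replicate 2. The long-leader side was higher in 21 genes, and the sign was the same in both replicates in 16, of which 15 were higher and 1 lower. Summed over the 29 genes the counts were nearly equal, 834 on long-leader and 839 on short-leader transcripts in replicate 1 and 2647 and 2768 in replicate 2. In the 20 genes with at least 50 footprints the median was 0.10, with 13 higher. If the whole excess lay in the additional leader, its density would be a median of 13.8% of the coding density of the short-leader transcript, and 5.84% in the 20 genes with more footprints. Over the 29 genes this value was 35.2% in replicate 1 and 11.97% in replicate 2, so the replicates differed in it.

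Among those 20 genes, Mras, of a Ras-related small GTPase, had the highest ratio: 38 and 100 footprints on Mras-001, with a leader of 1089 nucleotides, against 18 and 60 on Mras-003, with a leader of 137 (log2 ratio 0.82). Mras-001 also has a 3'UTR of 2985 nucleotides against 426. Brinp3, whose transcripts have 3'UTRs of 354 and 355 nucleotides, had 31 and 105 against 20 and 66 (0.66). Cant1 had 27 and 78 against 19 and 49 (0.62), and Xrcc6, of the DNA repair protein Ku70, had 9 and 66 against 6 and 46 (0.52). Taf11, of a general transcription factor subunit, had 30 and 77 against 19 and 65 (0.35). Mrps17, of the mitochondrial ribosome, had 9 and 53 against 13 and 35 (0.36), so its replicates went opposite ways.

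At the other end the members of a pair were nearly level, as equal division of shared footprints would also leave them; its part was not tested. Hypk-005, with a leader of 3514 nucleotides, had 40 and 112 footprints against 36 and 123 on Hypk-001, with a leader of 143 (−0.06). Rpl18-001 had 81 and 208 against 76 and 224 on Rpl18-201, which has a leader of 66 nucleotides (−0.05). Rpl36al-002 had 56 and 169 against 51 and 182 (−0.05). Hpca-005, of the neuronal calcium sensor hippocalcin, had 59 and 207 against 157 and 406 on 2 short-leader transcripts (−0.08). Ypel3 had 20 and 66 against 9 and 81 (−0.06), with the replicates on opposite sides. Leaders longer by 2309 nucleotides in Rpl18 and 3371 in Hypk thus went with pairs whose order differed between the replicates.

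**Figure D4:**
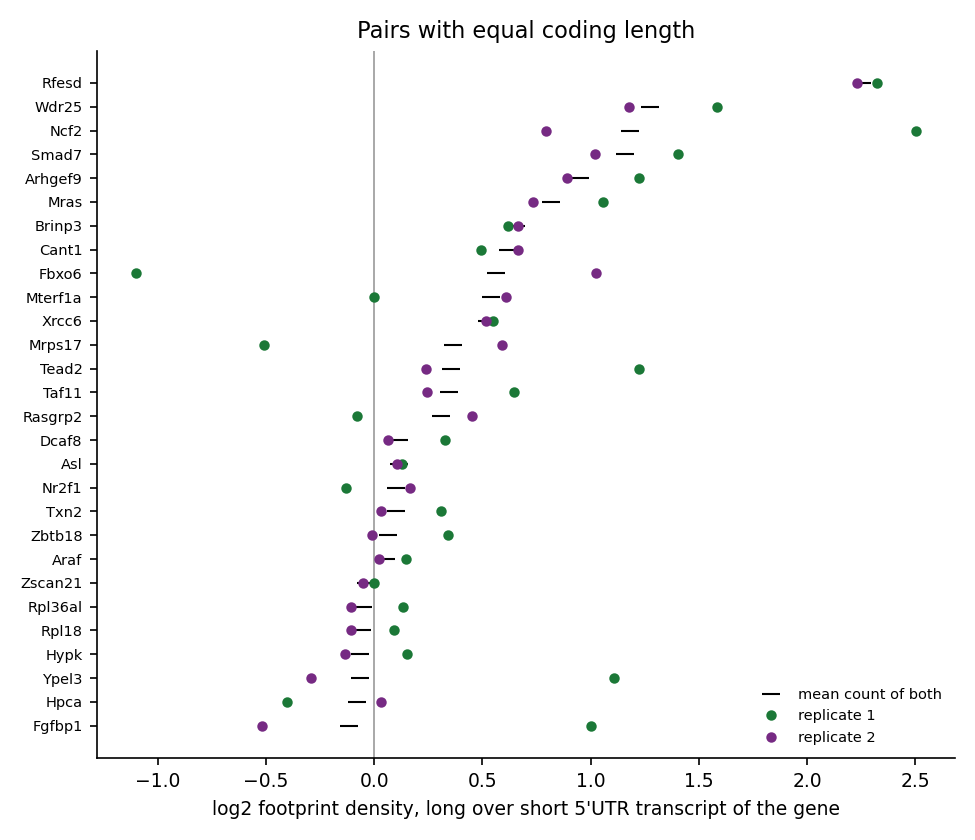
Each row is 1 of 28 of the 29 genes with long-leader and short-leader transcripts of equal coding length, with the log2 ratio of footprint density, long over short, in replicate 1, in replicate 2 and from their mean count. The ratios from the mean count run from −0.12 to 2.26, 21 lie above 0, and Rfesd, with 12 and 30 against 2 and 6 footprints, has the highest of them.

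Each transcript's counts in both libraries were set against the ratio of effective library sizes by an exact binomial test, two-sided, at a Benjamini-Hochberg adjusted p of 0.05. The test concerns the libraries and says nothing of a condition. Of the 43655 transcripts tested, 6.15% were called, 0.662% higher and 5.48% lower in replicate 2. Of 586 long-leader transcripts tested, 65 (11.1%) were called, 8 higher (1.37%) and 57 lower (9.73%). Of the 6421 short-leader transcripts tested, 8.75% were called, 0.716% higher and 8.04% lower. Of all coding transcripts of the range, 8.35% were called, 0.725% higher and 7.62% lower. The median mean count was 59.25 for long leaders, 53.5 for short leaders and 37.0 over all tested. The part of depth in these shares was not tested. Scaling by library totals in place of effective sizes gave 42 calls (7.17%), 15 higher and 27 lower, so the higher share of calls went from 12.3% to 35.7%. Over all transcripts this scaling called 4.35%, 1.72% higher and 2.63% lower. An exact test of edgeR with a common dispersion called 0 long-leader transcripts, with 36 at an unadjusted p under 0.05, and 8 of all transcripts. Its dispersion was estimated from the same 2 libraries taken as 1 group, so their difference set the spread it was tested against. Few calls follow largely from this construction, so the edgeR result cannot check the binomial calls. The median log2 ratio, replicate 2 over replicate 1, was −0.09 for long leaders, −0.02 for short leaders and 0.01 over all transcripts tested. By library totals these medians were 0.083, 0.16 and 0.19.

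Among the 161 long-leader transcripts with mean counts of 100 or more, 1 was called higher and 48 lower (30.4% in all). Of the 8940 transcripts tested with such counts, 24.1% were called, 1.07% higher and 23.0% lower. Of the 1876 short-leader transcripts with such counts, 25.9% were called, 0.693% higher and 25.2% lower. The 1 long-leader transcript called higher was Gprasp1-001, of a protein that sorts G protein-coupled receptors. It had 218 and 874 footprints (log2 ratio 0.32, exact binomial test, adjusted p = 0.0466). The lowest ratios were those of Irf2bpl-201 (−0.94, adjusted p = 1.68e-22) and Lrfn4-002, of a synaptic adhesion protein, with 136 and 228 footprints (−0.93, adjusted p = 5.56e-07). Ptp4a2-001, of a phosphatase, had 130 and 223 (−0.89), and Adcy5-201, of an adenylyl cyclase, 188 and 337 (−0.83). Jph4-001, of a junctophilin, had 207 and 377 (−0.81), and Mesdc1-001 had 75 and 136 (−0.81). Of the most abundant transcripts, Hnrnpul2-201 was called lower (−0.67, adjusted p = 9.12e-17), as was Gsk3b-001 (−0.52, adjusted p = 4.39e-07). Cdh2-001 was not called (−0.12, adjusted p = 0.624).

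Calls were more frequent where the gene has a single annotated transcript. Of 75 such long-leader transcripts tested, 27 (36.0%) were called and all 27 were lower in replicate 2. Among all 3412 coding transcripts of such genes, 25.3% were lower, with a median log2 ratio of −0.34 against −0.43 for the long leaders. They include the immediate early genes Jun (176 and 375 footprints) and Jund (207 and 438), the POU factor Pou3f1 (124 and 237) and the insulin receptor substrate Irs1 (145 and 328). Of the 511 long-leader transcripts of genes with more than 1 transcript, 30 were lower (5.87%) and 8 higher (1.57%), with a median of −0.03. Of all 23891 coding transcripts of such genes tested, 4.43% were lower and 0.774% higher. How much of this follows from the assignment of shared footprints was not tested.

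Summed over all transcripts of a gene, the difference in direction was smaller. Of 16427 genes tested, 17.4% were called, 5.95% higher and 11.5% lower. Of the 517 genes with a long-leader transcript, 116 (22.4%) were called, 53 higher (10.3%) and 63 lower (12.2%), with a median log2 ratio of 0.021. Their median mean count was 142 against 96.0 for all genes tested. The initiation factors were split, with 5 of 50 genes higher, among them Eif4a2 (0.37), Eif4g1 (0.37) and Eif4e (0.45), and 12 lower, among them Eif3h (−0.55), Eif4b (−0.50) and Ddx3x (−0.22).

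**Figure D5:**
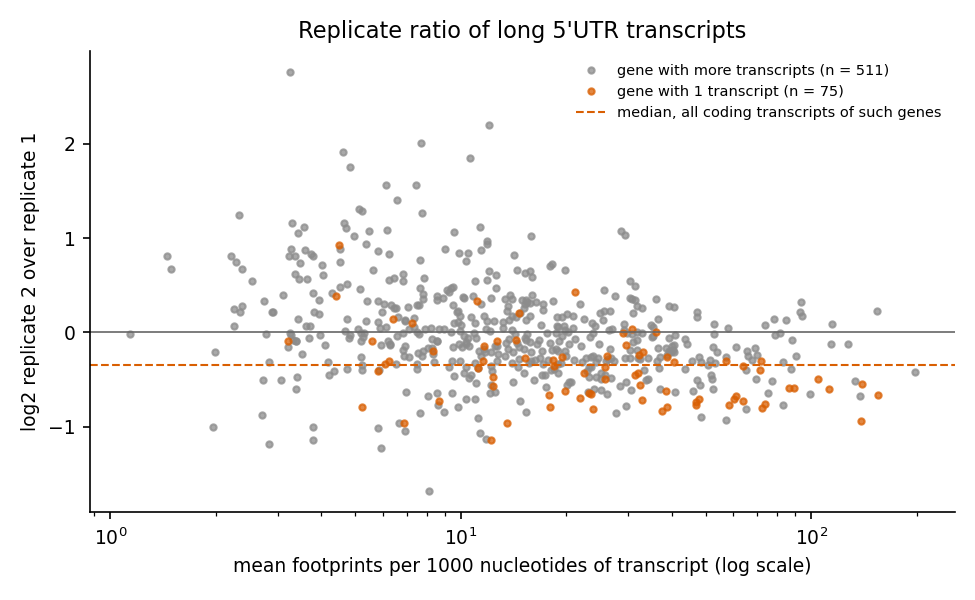
Each point is a long-leader transcript whose mean count is 10 or more, by its mean footprints per 1000 nucleotides of transcript (log axis) and its log2 ratio of replicate 2 over replicate 1, coloured by whether the gene has 1 annotated transcript (n = 75) or more (n = 511). The dashed line marks the median of −0.34 for all coding transcripts of genes with 1 transcript, and the 75 points have a median of −0.43.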

How the data were processed

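Per the labels, polysomes of 2 brains were treated with RNase I and fragments of 25 to 35 nucleotides were sequenced. The authors deposited whole-number counts per transcript, not normalized, with annotated lengths. The submitters' processing notes name Trimmomatic 0.36, Bowtie2 2.2.6, SAMtools and build GRCm38.p4. Annotation release, strand and the handling of duplicates and multiply matching reads are not given in the sources used here.

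Density was the count per coding nucleotide. Log2 ratios of pairs used a pseudocount of 0.5 counts, those of replicates TMM scaling (edgeR 4.0.16) and a prior of 0.5 CPM. The replicates were compared with a two-sided exact binomial test (scipy 1.17.1), adjusted over all transcripts or genes whose mean count is 10 or more. With 1 group, no quasi-likelihood model could be fitted. On simulated counts for these 43655 transcripts the test recovered 24.0% of 2-fold and 62.0% of 4-fold changes. The simulated counts held counting error only and were scaled by library totals, so these shares need not hold for the real libraries. Alternatives covered filters, length bands, scaling, DESeq2 1.42.0 size factors and leaving out a replicate.

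Members and gene lists were chosen with earlier results of these data known. Named transcripts were the 10 densest, the 8 highest in CPM, the 6 longest leaders, up to 6 called at each end with mean counts of 100 or more, 6 pairs at each end with 50 or more, the 3 highest per list and 3 on each side of the threshold. Others, and the groups of genes with a single transcript and of chemoreceptors, were chosen after their values were seen. A few items under this rule, among them 1 gene of the plot of pairs, are not reported here.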

Additional observations from a re-analysis of the deposited data

How the results depend on the processing

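The ratio of median densities (1.89) was 0.992 with a mean count of at least 10, where the replicates lay on opposite sides of 1, and was reversed in both with at least 50 (0.789). It moved to 1.19 with at least 1, 1.32 per transcript nucleotide, 1.73 and 1.29 against leaders of 20 to 250 nucleotides and of over 150 up to 300, 2.26 with 1 transcript per gene, 4.87 for genes with a single transcript, 2.05 for genes without a short leader, 1.36 and 2.48 in the shortest and longest coding class, and 1.09 for pooled counts. Without 1 replicate it was 1.78 to 2.01, and 6 other settings kept it within the replicate SD. The share reaching a mean count of 10 (72.8%) was 88.3% for a minimum of 1, 41.4% for 50, and 58.6% to 75.9% without 1 replicate.

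The log2 ratio within genes was −0.21 per transcript nucleotide, and 0.32 to 0.40 without 1 replicate. For equal coding length it was −0.51 per transcript nucleotide, 0.15 with no filter, 0.10 with at least 50 footprints, and 0.24 to 0.33 without 1 replicate. The share of footprints (1.67%) was 2.21% of protein-coding footprints, and 1.64% to 1.70% without 1 replicate.

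Calls between replicates (65) were 42 by library totals, 116 for summed genes, 27 for genes with a single transcript and 0 by edgeR's exact test, which called 8 of all transcripts. The dispersion of edgeR's test was estimated from the 2 libraries it compared, so its 0 does not check the 65 calls. The median log2 ratio (−0.09) was 0.083 by library totals, 0.021 for summed genes, −0.18 with the trend with density removed and −0.43 for genes with a single transcript. Where the settings do not differ by construction, the cause was not tested. No paired analysis was possible because there is 1 group of 2 samples. Leader sequences were not analysed, and replicate 1, the shallower library, sets the precision.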

Other observations

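Gene families, grouped by symbol after the values were seen, also differed in how often they had a long-leader transcript. Among the protocadherins named by Pcdh and a number, 4 of 11 genes had one (36.4%): Pcdh7, Pcdh10, Pcdh17 and Pcdh19. All 8 of their long-leader transcripts reached a mean count of 10, and together they had 1578 and 3857 footprints. Of the Zbtb zinc finger genes 5 of 41 (12.2%) had a long-leader transcript, and of the orphan receptors named Gpr 7 of 66 (10.6%). The Zfp zinc finger genes (13 of 329, 3.95%) and solute carriers (15 of 363, 4.13%) were close to the 3.43% of all genes.

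Genes known only as predicted or as Riken clones were part of the low end. Of such genes, 32 of 959 predicted genes (3.34%) and 32 of 709 Riken clones (4.51%) had a long-leader transcript, close to the 3.43% of all genes. In all, 68 long-leader transcripts had no footprint in either sample. The short-leader class was not set beside these counts. Predicted genes (Gm and a number) had 32 long-leader transcripts, of which 14 had no footprint in either sample and 5 reached a mean count of 10. Riken clones had 37, of which 17 had no footprint and 12 reached it.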
